A study of Mus musculus with 32 samples.

Results

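The earliest time point after FGF, 15 min, was examined in immortalized mouse embryonic fibroblasts that still carry intact Sprouty genes. The comparison set 3 bead arrays of cells taken 15 min after FGF against 4 arrays of the same cells at 0 min, and these 7 arrays were chosen by genotype and time label from 32 in all. The cells are Spry124fl/fl: Spry1, Spry2 and Spry4 are floxed on both alleles but not deleted, and the labels call them WT. They stand for wild-type cells only in that sense, and the labels do not say whether they are 1 line or several. All groups were serum starved in DMEM with bovine serum albumin, penicillin and streptomycin, so the 0 min cells are starved, unstimulated cells. The second genotype, Spry124-/- (KO), was used for a side-by-side reading at 15 min (3 arrays) and 0 min (4 arrays), and the arrays at 60, 120 and 240 min (3 per genotype and time) are given as levels only. Neither the kind of FGF nor its dose is stated in the labels.

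As background, FGF binds receptor tyrosine kinases and activates the RAS-ERK kinase cascade within minutes. Kinases of this cascade act on transcription factors already present, such as SRF with its TCF partners and CREB, and so switch on immediate early genes without new protein synthesis. Products of the first wave (EGR and AP-1 factors, RNA-binding proteins of the Zfp36 family, dual-specificity phosphatases) then shape later waves. Sprouty proteins are feedback inhibitors of the cascade, encoded by genes that the cascade itself induces, and growth factor signalling through PI3K and AKT keeps FoxO transcription factors out of the nucleus. At 15 min a steady-state RNA level can have moved only for genes that respond fast or RNAs that decay fast.

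Fibroblast identity was checked first. Of 13 fibroblast markers on the array, 11 (among them Col1a1, Vim, Thy1 and Pdgfra) were detected on all 7 arrays, Pdgfrb on 6 and Fap on none. Defining markers of leukocytes (Ptprc), endothelium (Pecam1, Cdh5), epithelium (Cdh1), neurons (Tubb3, Map2), muscle (Myod1) and fat (Adipoq) were detected on none, but other markers on the same lists were. All 7 arrays detected 1 of 8 leukocyte markers (Cd14; Lyz1 on 5 and Aif1 on 4), 0 of 8 endothelial (Eng on 3), 1 of 8 epithelial (Krt8; Cldn4 on 6), 3 of 7 neural (Nes, Gap43, Ncam1; the other 4 on none), 1 of 7 muscle (Tnnt1; Des on 6, Myog on 5) and 2 of 9 fat, cartilage and bone markers (Pparg, Sox9). Of all these markers 0 were called between 15 and 0 min by limma, but 1 leukocyte marker rose with median scaling over all probes, and without normexp background correction 1 epithelial marker rose and 1 fibroblast marker fell. At an unadjusted p under 0.05, a level passed by 14.2% of all tested genes, 1 fibroblast marker was higher and 1 lower. Cd14 (0.44), Eng (0.51) and Krt8 (0.43, all log2 differences) were higher at that level. Their part in the results was not tested. The 15 min arrays detected 11445 to 11775 probes and the 0 min arrays 11319 to 11553. Correlations of log2 values over the 10903 tested genes were 0.995 within 15 min, 0.991 to 0.995 within 0 min and 0.991 to 0.994 between the times. The closest pairs (replicates A and C at 15 min, A and D at 0 min) still differed by 1.47 and 1.48 times the bead noise in mean squared log2 difference. That ratio was taken over kept probes with an intensity above 100 on all 7 arrays. Each array was counted as 1 sample. The number of arrays limits the precision, and in RNA from whole cultures a change in few cells and a smaller change in all cells cannot be told apart.

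In WT cells at 15 min, 124 genes were higher and 126 lower than at 0 min, of 10903 tested, a gene being called where the Benjamini-Hochberg adjusted p of the limma fit was under 0.05. That is 2.29% of the genes tested, 1.14% higher and 1.16% lower. The changes were small: 4 called rises and 2 called falls exceeded 2-fold, and 32 and 23 exceeded 1.5-fold. The median absolute log2 difference of the called genes was 0.47, against an SD of 0.18 of the log2 differences over all genes. Of the called genes, 119 of the 124 rises and 117 of the 126 falls had 15 min arrays that did not overlap the 0 min arrays, a pattern that 7.31% (higher) and 5.98% (lower) of all tested genes showed. The count depended on single arrays: 101 genes were called without 15 min replicate B and 134 without 15 min replicate C, and 71 (39 higher, 32 lower) whichever of the 7 arrays was left out. Fitted on the 7 arrays alone, without the spread of the other groups, 25 genes were called (14 higher, 11 lower), and with median scaling over all probes in place of quantile normalization 133 were (100 higher, 33 lower).

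**Figure D1:**
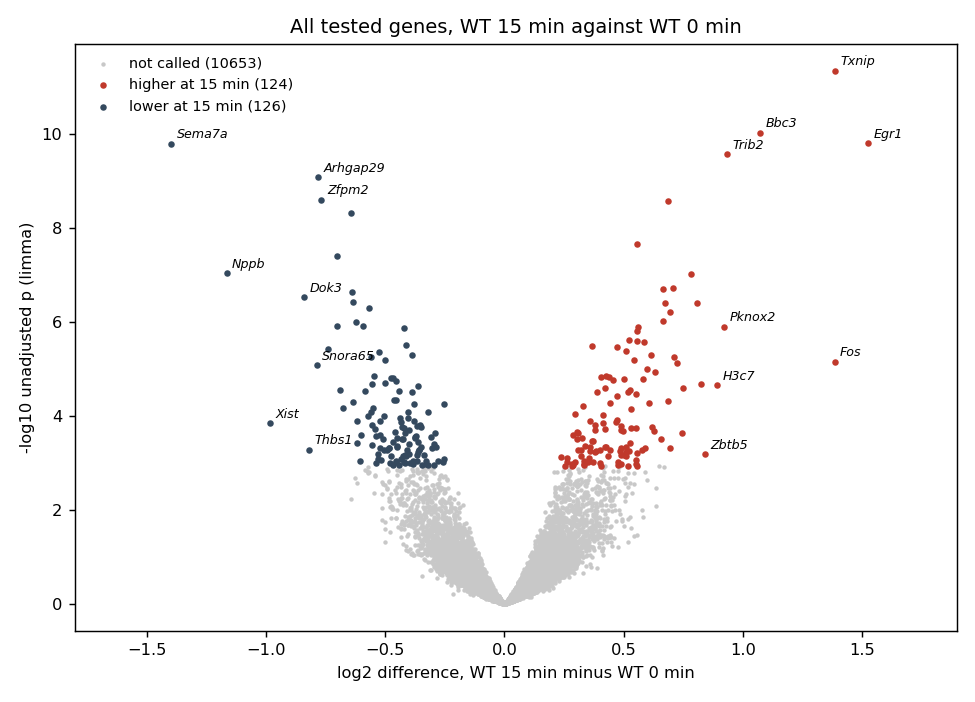
Each point is 1 of the 10903 tested genes, with the log2 difference of WT 15 min minus WT 0 min on the x axis and the -log10 of limma's unadjusted p on the y axis. Red points are the 124 genes called higher at 15 min, dark points the 126 called lower, and grey points were not called. Egr1, Txnip, Fos and Bbc3 lie farthest to the right, Sema7a and Nppb farthest to the left.

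Among 20 tested transcription factors of the immediate early response, Egr1 and Fos were called higher and none was called lower. Over all tested genes 1.14% were called higher and 1.16% lower. Egr1, a zinc-finger factor and a classical readout of ERK activity, stood at a log2 normalized intensity of 12.71, 13.21 and 12.74 on the 15 min arrays, against 11.38, 11.60, 11.10 and 11.38 on the 0 min arrays. All 3 stimulated arrays lay above all 4 unstimulated ones, as in 7.31% of all tested genes, and the gene was bright before stimulation. The difference was 1.53 ± 0.15 (log2, ± SE of the fit), or 2.88-fold, with a limma adjusted p of 4.32e-07. It was the largest called rise, and it stayed between 1.37 and 1.61 whichever array was left out.

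Fos, the AP-1 subunit, stood at 6.03, 7.08 and 5.69 at 15 min, against 4.91, 5.02, 4.71 and 4.88 at 0 min. Its signal passed detection on all 3 stimulated arrays but on only 1 of the 4 unstimulated ones, so the basal value lay near background. The difference was 1.39 ± 0.25 (2.61-fold, adjusted p = 0.00164). Replicate B gave the highest value, and without it the difference was 0.98 (adjusted p = 0.0378). In the fit of the 7 arrays alone the adjusted p of Fos was 0.101. Without normexp background correction the difference was 0.85, and those of other dim genes were smaller too (H3c7 0.53, Mkrn3 0.44, Dok3 -0.50), all still called.

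The other 18 tested factors of this list were not called. Jun stood at 7.34 ± 0.12 (SD, n = 3) at 15 min and 7.04 ± 0.07 (n = 4) at 0 min, a difference of 0.29 with an adjusted p of 0.192. Junb differed by 0.07, Myc by 0.11, Klf4 by 0.09 and Klf6 by 0.12, with adjusted p from 0.565 to 0.839. Egr2 differed by -0.43 (adjusted p = 0.118), Maff, a small MAF factor, by -0.57 (0.0586), Csrnp1 by -0.32 (0.123) and Atf3 by -0.27 (0.33). Fosb and Egr4 were not detected on any of the 7 arrays, so they have no measured level here. The list's median log2 difference was 0.07, beside 0.00281 over all tested genes. At an unadjusted p under 0.05 in limma, 3 of the 20 tested members were higher and 6 lower. Over all tested genes 14.2% passed that level, and the list was not tested against this share.

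Of the immediate early genes that do not encode such factors, 2 of 21 tested rose and 6 fell, but 2 fell with median scaling over all probes. Over all tested genes 1.14% rose and 1.16% fell, and the list was not tested against these shares. Zfp36, encoding tristetraprolin, a protein that binds AU-rich elements and speeds mRNA decay, stood at 7.10, 7.82 and 7.10 at 15 min, against 6.88, 6.80, 6.58 and 6.87 at 0 min. The difference was 0.56 ± 0.14 (adjusted p = 0.0355) and rested in part on replicate B, without which it was 0.32 (adjusted p = 0.361). Zfp36 lost its call when any of 3 arrays was left out and in the fit of the 7 arrays alone (0.239). Its relative Zfp36l1 stood at 11.80, 11.88 and 11.89 at 15 min, against 11.46, 11.49, 11.14 and 11.46 at 0 min, a difference of 0.47 ± 0.10 (adjusted p = 0.00543). The 15 min arrays of both lay above every 0 min array, as they did in 7.31% of all tested genes. Zfp36l1 kept its call whichever array was left out but not with the mean of its 3 kept probes, which differed by 0.47, 0.38 and -0.07 (mean 0.26, adjusted p = 0.223).

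The 6 falls in this list included the ligand Hbegf, heparin-binding EGF-like growth factor, which activates the EGF receptor. Hbegf stood at 9.88, 9.81 and 9.86 at 15 min, against 10.51, 10.77, 10.33 and 10.61 at 0 min. The groups were far apart for their spread, with a difference of -0.70 ± 0.09 and an adjusted p of 3.83e-05. Errfi1, which encodes the EGF receptor inhibitor MIG6, stood at 11.71, 11.56 and 11.76 at 15 min, against 12.17, 12.12, 12.01 and 12.09 at 0 min. It fell by 0.42 on the log2 scale (SE 0.07, adjusted p = 0.000505). Gadd45b, a stress sensor upstream of p38 and JNK, differed by -0.56 ± 0.10 (adjusted p = 0.00142), and Plk3, a polo-like kinase of stress responses, by -0.42 ± 0.10 (0.0235). Ier5l, an immediate early response gene, differed by -0.37 (0.0228), and Sgk1, a kinase downstream of PI3K, by -0.25 (0.0425). Sgk1 and Plk3 each lost the call when any of 5 arrays was left out and Ier5l when any of 4 was. With median scaling over all probes Errfi1 (adjusted p = 0.0844), Plk3 (0.0857), Ier5l (0.132) and Sgk1 (0.448) were not called. When 1 array was left out, the list had 1 to 4 rises and 3 to 5 falls. Members with little difference were Ccn2 (-0.06), Rhob (0.01) and Plk2 (-0.06), none of them called. Ccn1 was not called either, with 0.13 on the probe used and 0.26 and 0.46 on its other kept probes.

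**Figure D2:**
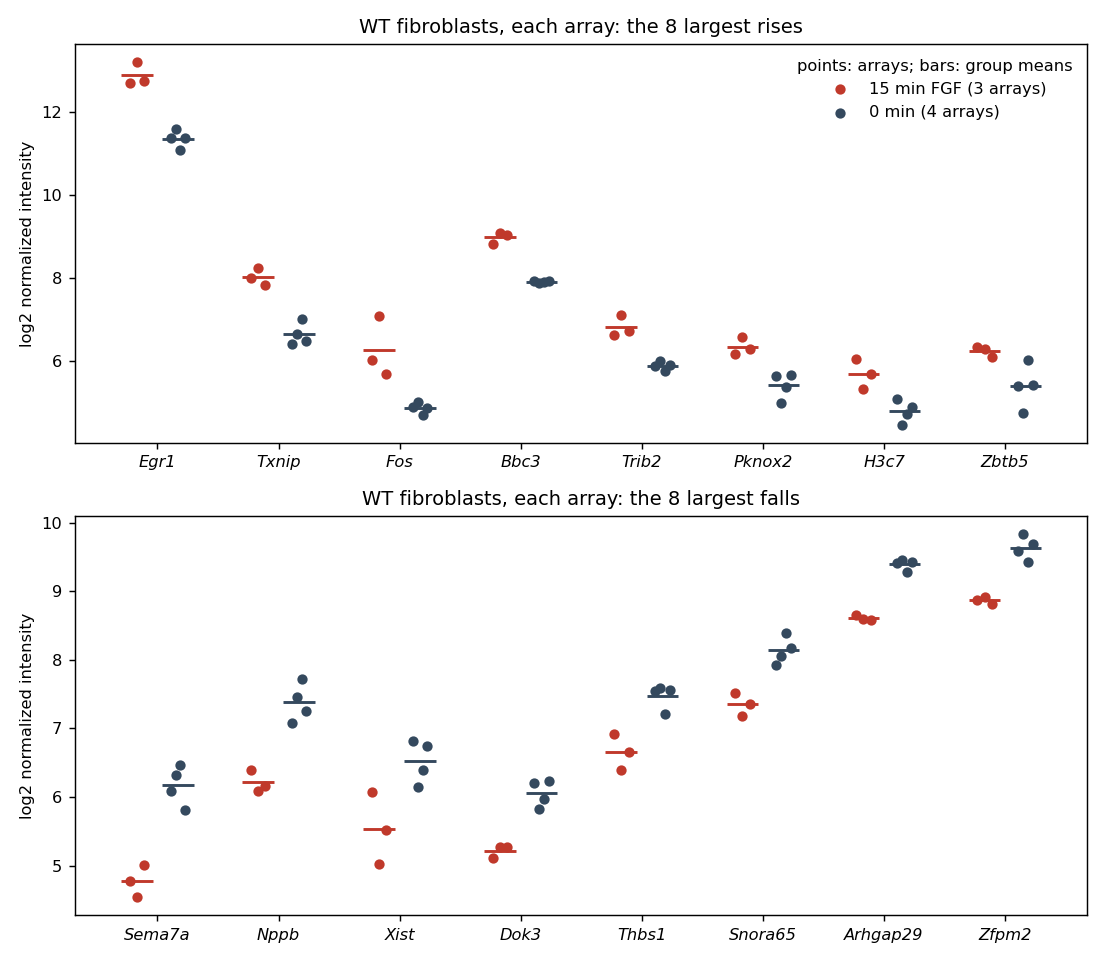
Each point is 1 array, with the log2 normalized intensity on the y axis, for the 8 largest called rises (top) and falls (bottom) in WT cells. Within a gene the 3 arrays at 15 min of FGF (red) stand left of the 4 arrays at 0 min (dark), and bars are group means. Genes were chosen among those whose arrays do not overlap between the times, so the gaps are a description.

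Of 19 tested feedback genes of the ERK cascade, 1 rose (Spry3), 1 fell (Spry4) and 17 were not called. Over all tested genes 1.14% rose and 1.16% fell, and this list was not tested against these shares. Dusp6, the ERK phosphatase, stood at 10.69, 10.73 and 10.76 at 15 min, against 10.67, 10.73, 10.66 and 10.53 at 0 min. These ranges overlap, and the difference was 0.08 ± 0.09 (adjusted p = 0.753). The other kept probes of Dusp6 differed by -0.12 and 0.36, the latter detected on 1 of 4 arrays at 0 min. Dusp1 differed by -0.15, Dusp4 by 0.07, Spred1 by 0.12, and the ETS factors Etv4 and Etv5, transcriptional outputs of FGF signalling, by 0.01 and 0.22, none of them called. None of the 16 tested FGF ligands, receptors and adaptors was called. At an unadjusted p under 0.05, which 14.2% of all tested genes passed, 2 of these were higher and 1 lower. The log2 differences of the 16 ran from -0.32 to 0.28.

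The Sprouty genes themselves are the targets of the deletion in the second genotype. Spry1 (2 probes) was detected on none of the 7 WT arrays and Spry2 (1 probe) on 1 array at 0 min, so neither was tested and these probes do not check the genotype. Spry4 stood at 4.74, 4.93 and 4.66 at 15 min, not well above background on any array, against 5.37, 5.77, 5.50 and 5.16 at 0 min, detected on all 4. Spry4 was therefore at least 1.43-fold lower at 15 min (adjusted p of the fit 0.00827; without 15 min replicate C, 0.0572). Spry3, the X-chromosomal family member that is not floxed here, stood at 6.95, 7.33 and 6.95 at 15 min, against 6.57, 6.14, 6.38 and 6.53 at 0 min. It rose by 0.67 ± 0.10 (adjusted p = 0.000215). In KO cells Spry3 was not detected at either time, and Spry4 was detected on 1 of 4 arrays at 0 min and on none at 15 min.

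Genes known as FoxO or quiescence targets, and p53 targets, supplied several of the largest rises. Among 19 tested FoxO and quiescence genes 4 rose and 0 fell (3 to 4 rises when 1 array was left out). Txnip, thioredoxin-interacting protein, an arrestin-family protein that restrains glucose uptake and binds thioredoxin, stood at 8.0, 8.25 and 7.85 at 15 min, against 6.42, 6.67, 7.01 and 6.50 at 0 min. It rose by 1.39 ± 0.12 (2.61-fold), with the smallest adjusted p of all genes, 4.79e-08. Trib2, a pseudokinase that scaffolds ubiquitin ligases, stood at 6.64, 7.11 and 6.73 at 15 min, against 5.89, 6.01, 5.76 and 5.91 at 0 min, a rise of 0.93 ± 0.10 (adjusted p = 5.78e-07). Both genes kept the groups apart by more than the spread within either. Ccng2, an atypical cyclin of non-dividing cells, rose by 0.63 ± 0.12 (adjusted p = 0.00245). Fbxo32, a muscle-atrophy ubiquitin ligase subunit, rose by 0.59 ± 0.15 (0.031). Its call was lost when any of 4 arrays was left out (0.229 without 15 min replicate B). Other members were not called: Cdkn1b differed by 0.03, Irs2 by -0.02, Sesn3 by 0.12 and Arrdc4 by -0.37. The list's median log2 difference was 0.12.

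Among 19 tested p53 target genes 4 rose and 1 fell (3 to 5 and 0 to 1 when 1 array was left out), with a median log2 difference of 0.14. Bbc3, which encodes the BH3-only death protein PUMA, stood at 8.83, 9.09 and 9.05 at 15 min, against 7.94, 7.89, 7.91 and 7.93 at 0 min. The unstimulated arrays agreed within an SD of 0.02, and the rise was 1.07 ± 0.11 (2.10-fold, adjusted p = 4.32e-07). Bbc3 has 3 kept probes, of which the brightest was used. The other 2 differed by -0.02 and 0.08, so the rise holds for 1 probe, and with the mean of the probes it was 0.38 (adjusted p = 0.0987). Mdm2, the ubiquitin ligase that degrades p53, stood at 12.56, 12.56 and 12.57 at 15 min, against 12.21, 12.05, 12.06 and 12.11 at 0 min, a rise of 0.46 ± 0.09 (adjusted p = 0.00307). A second bright probe of Mdm2 differed by 0.47 and a dimmer one by 0.24. Trp53inp1, a p53-induced autophagy and death protein, rose by 0.50 ± 0.10 (adjusted p = 0.00302). Cdkn1a, the CDK inhibitor p21, rose by 0.41 ± 0.08 (0.00293) and was named after its values were seen. Fas, the death receptor, was lower, by -0.55 ± 0.14 (0.0297, lost when any of 4 arrays was left out). Fas was also not called with median scaling over all probes (0.136) or with the mean of its probes (-0.40, 0.0762). Its other kept probes differed by -0.57 and -0.07. Pmaip1, Phlda3, Aen and Ccng1 differed by -0.05, -0.01, -0.11 and 0.15 and were not called. Neither list was singled out by a test, and 2.29% of all genes were called.

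**Figure D3:**
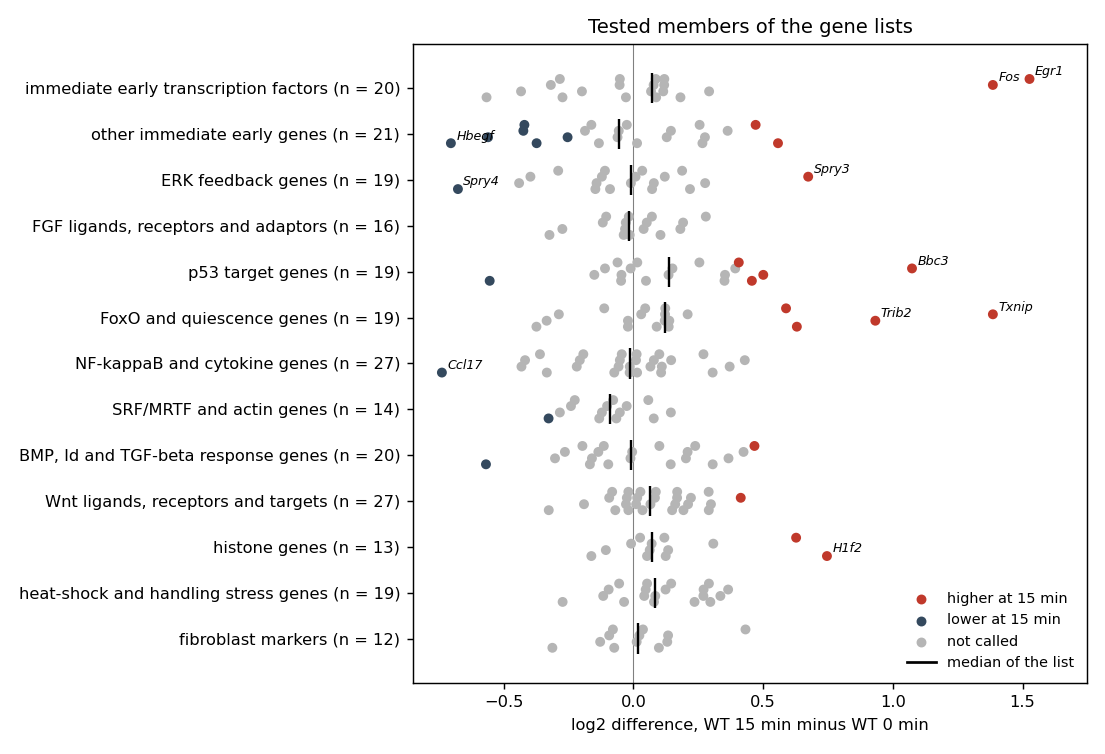
Each point is a tested member of a gene list (rows), placed on the x axis by its log2 difference of WT 15 min minus WT 0 min. Red members were called higher at 15 min, dark members lower and grey ones not called, and the black tick is the list's median. In most lists the median lies near 0, and single genes such as Egr1, Fos, Txnip and Bbc3 stand apart from their lists.

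Promoters of some named genes that rose are shown, with short DNA words that occur in some immediate early and FoxO target genes. Each sequence is the 250 bases before a RefSeq transcription start on GRCm38.p6, 5′ to 3′ in the direction of the gene. Capitals mark, in Fos, TGACG (at -129 and -66, counted from the start site) and TATAAA (at -33), in Zfp36 a CArG box (at -58), and in Txnip and Bbc3 the forkhead word TGTTTAC or its reverse complement (at -121 and -167). Fos lies on the plus strand at chr12:85473640-85473889, Zfp36 on the minus strand at chr7:28379229-28379478, Txnip on the plus strand at chr3:96557707-96557956, and the second of 3 Bbc3 start sites on the plus strand at chr7:16310011-16310260.
Fos: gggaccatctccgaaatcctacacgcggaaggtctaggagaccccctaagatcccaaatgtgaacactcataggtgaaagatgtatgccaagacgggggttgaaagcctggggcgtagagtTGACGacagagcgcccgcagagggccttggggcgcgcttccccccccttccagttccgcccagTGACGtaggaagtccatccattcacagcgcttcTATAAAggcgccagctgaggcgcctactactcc
Zfp36: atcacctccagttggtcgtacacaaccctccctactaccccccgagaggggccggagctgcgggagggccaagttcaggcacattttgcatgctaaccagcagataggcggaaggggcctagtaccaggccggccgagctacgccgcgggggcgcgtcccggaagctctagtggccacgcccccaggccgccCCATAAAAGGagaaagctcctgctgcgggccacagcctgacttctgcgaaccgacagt
Txnip: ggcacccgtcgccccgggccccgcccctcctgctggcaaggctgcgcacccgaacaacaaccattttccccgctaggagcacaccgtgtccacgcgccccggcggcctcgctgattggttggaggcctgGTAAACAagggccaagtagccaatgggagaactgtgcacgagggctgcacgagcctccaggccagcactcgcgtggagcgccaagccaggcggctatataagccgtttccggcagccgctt
Bbc3: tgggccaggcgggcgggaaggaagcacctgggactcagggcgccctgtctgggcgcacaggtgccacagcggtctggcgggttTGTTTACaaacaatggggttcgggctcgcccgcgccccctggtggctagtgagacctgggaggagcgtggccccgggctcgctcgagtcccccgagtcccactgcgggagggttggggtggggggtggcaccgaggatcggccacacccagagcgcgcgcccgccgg

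Promoter sequences were at hand for 97 of the 124 genes that rose, 94 of the 126 that fell and 8151 of the 10903 tested. The rest were not searched, so the shares below do not cover every called gene. All start sites of a gene were searched, from 250 bases before to 50 after and on both strands. TGTTTAC was found in 8 of 97 genes that rose (8.25%), 2 of 94 that fell (2.13%) and 3.14% of 8151 tested genes. The 8 were Txnip, Bbc3, Mdm2, Mkrn3, Zbtb5, Josd2, Nr2f1 and Txnl4b. The CArG box was in 2.06% of genes that rose, 3.19% of those that fell and 1.69% of all. TGACG was in 36.1%, 42.6% and 34%, the full CRE TGACGTCA, which contains TGACG, in 5.15%, 4.26% and 3.44%, the AP-1 word TGACTCA in 4.12%, 3.19% and 5.2%, CACGTG in 15.5%, 14.9% and 11.5%, and TATAAA in 13.4%, 14.9% and 10.1%. The words were chosen after the data were seen, no test was made, and a match describes letters, not binding.

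Outside these lists, the largest rises were in genes of varied function. Pknox2, a TALE homeobox factor, stood at 6.17, 6.58 and 6.29 at 15 min, against 5.64, 5.0, 5.38 and 5.67 at 0 min, a rise of 0.92 ± 0.15 (adjusted p = 0.000499). A second kept probe of Pknox2, dimmer and detected on 1 of the 7 arrays, differed by 0.10, and the mean of the probes by 0.51. Mterf1a, a mitochondrial transcription termination factor, stood at 7.82, 7.78 and 7.70 at 15 min, against 6.98, 6.97, 7.08 and 6.81 at 0 min. It rose by 0.81 ± 0.12 (adjusted p = 0.000215), and its 2 other probes differed by 0.74 and 0.65. Osr2, an odd-skipped zinc-finger factor of mesenchyme, stood at 11.11, 11.41 and 11.18 at 15 min, against 10.50, 10.61, 10.47 and 10.58 at 0 min, a rise of 0.70 ± 0.11 (0.000299). Tcim, a positive regulator of Wnt signalling, rose by 0.83 (adjusted p = 0.00365), Angpt2, the angiopoietin ligand of TIE2, by 0.71 (0.000139), Mkrn3, an imprinted makorin ubiquitin ligase, by 0.73 (0.00171) and Tmem177, a mitochondrial membrane protein, by 0.71 (0.00142). Zbtb5, a BTB zinc-finger factor, rose by 0.84 (0.0363), a call lost when any of 6 arrays was left out.

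Histone genes were among the rises as well: 2 of 13 tested, the linker histone gene H1f2 (0.75, adjusted p = 0.0194) and H2ac18 (0.63, 0.018), and outside the list H3c7 (0.89, 0.00376). Over all tested genes 1.14% rose, and neither the histone list nor the lists below were tested against this share. H3c7 was detected on 1 of 4 arrays at 0 min. H1f2 lost its call when any of 5 arrays was left out and H2ac18 when either of 2 was, and the list had 0 to 2 rises when 1 array was left out. Near-identical histone copies can share a probe, so which copy was measured is uncertain. Other single rises within lists were Inhba, the activin A subunit (0.47, adjusted p = 0.0142), Tcf7l1, a repressive TCF factor of the Wnt pathway (0.41, 0.0113; 1 of 27 tested Wnt genes), Ddit3, the stress factor CHOP (0.44, 0.00703; 1 of 23 stress genes), and Pes1, a ribosome assembly factor (0.31, 0.0232; 1 of 19). When 1 array was left out, Pes1 lost its call for any of 5 arrays, Inhba for any of 3 and Tcf7l1 and Ddit3 for 1 (15 min replicate B). Pes1 was also not called with median scaling over all probes (0.0767).

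The largest fall was in Sema7a, a GPI-anchored semaphorin that signals through integrins. It stood at 4.77, 4.54 and 5.01 at 15 min, detected on 1 of 3 arrays, against 6.08, 6.32, 6.47 and 5.82 at 0 min, detected on all 4. The difference was -1.40 ± 0.14 (2.63-fold lower, adjusted p = 4.32e-07), and since 2 stimulated arrays lay at background the size is approximate. A second kept probe was detected on none of these arrays and differed by -0.07, and the mean of the probes differed by -0.74.

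Nppb, which encodes B-type natriuretic peptide, stood at 6.40, 6.09 and 6.16 at 15 min, against 7.09, 7.45, 7.72 and 7.26 at 0 min, a difference of -1.16 ± 0.16 (2.24-fold lower, adjusted p = 8.05e-05). Arhgap29, a GTPase-activating protein, stood at 8.65, 8.59 and 8.59 at 15 min, against 9.41, 9.45, 9.28 and 9.43 at 0 min, a difference of -0.78 ± 0.09 (1.5e-06). Zfpm2, the GATA cofactor FOG2, stood at 8.87, 8.92 and 8.81 at 15 min, against 9.59, 9.83, 9.43 and 9.69 at 0 min, a difference of -0.77 ± 0.09 (3.53e-06). In these 3 genes every stimulated array lay below every unstimulated one. This was a condition of being named by size, and 5.98% of all tested genes met it. Dok3, a docking protein that dampens tyrosine kinase signals, stood at 5.11, 5.27 and 5.27 at 15 min, against 6.20, 5.82, 5.97 and 6.24 at 0 min, a difference of -0.84 ± 0.12 (0.000189).

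Further falls named by size were Snora65, a small nucleolar RNA (-0.79, adjusted p = 0.00186), the chemokine Ccl17 (-0.74, 0.00111), Frmd6, a FERM protein of the Hippo pathway (-0.70, 0.000499), Wsb1, a SOCS-box ubiquitin ligase subunit (-0.64, 5.78e-06), the adhesion molecule Nectin3 (-0.64, 0.000153) and Mfap5, a microfibril glycoprotein (-0.64, 0.00681). Id1, an inhibitor of bHLH factors and target of BMP signalling, stood at 7.69, 7.57 and 7.45 at 15 min, against 8.20, 8.15, 8.11 and 8.10 at 0 min, a difference of -0.57 ± 0.09 (0.000257). The angiogenic factor Vegfa differed by -0.50 (0.00153) and Fhl2, a LIM-only cofactor of SRF, by -0.33 (0.0485). Fhl2 lost its call in 12 of 16 alternatives, 6 of them leaving out 1 array, and Vegfa with median scaling over all probes (0.0593). Thbs1, the matrix protein thrombospondin 1, differed by -0.82 ± 0.21 (0.0321), but lost its call when any of 5 arrays was left out. The X-inactivation RNA Xist differed by -0.98 ± 0.22 on the probe used (0.0147), while a second kept probe differed by 0.16. Xist lost its call without 15 min replicate B (0.177) and without 15 min replicate C (0.0567). Frmd6 also lost its call with the mean of its probes (-0.27, 0.0798). The other kept probes of Nectin3 differed by -0.34 and 0.04, and the mean of its probes by -0.31. Mfap5 lost its call when either of 2 arrays was left out and with median scaling over all probes (0.0523).

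Lists with no called member were the fibroblast markers, those of G1/S and G2/M cell-cycle genes, cytosolic ribosomal proteins, respiratory chain subunits, cholesterol synthesis, interferon-stimulated, Notch, RGS and heat-shock genes. Of 19 heat-shock and handling stress genes, 4 were higher and 0 lower at an unadjusted p under 0.05, with log2 differences from -0.27 to 0.37. Of 27 NF-kappaB and cytokine genes 1 fell, Ccl17, and 4 were higher and 6 lower at that unadjusted level. Over all tested genes 14.2% passed that level, and neither list was tested against this share. Genes that rose had a median genomic span of 14.1 kb and those that fell 18.1 kb, beside 21.0 kb for all named tested genes. Their median log2 levels at 0 min were 7.14 and 8.21, beside 6.77 for all tested genes.

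The 15 min response of WT cells was set against that of KO cells, which share none of these arrays. In KO cells 89 genes were called (0.816% of those tested), 43 higher (0.394%) and 46 lower (0.422%). Of the 250 genes called in WT cells 31 were called in the same direction in KO cells, which is 12.4% of the WT calls and 34.8% of the KO calls. Among them were Egr1 (log2 difference 1.53 in WT cells, 1.79 in KO cells), Fos (1.39 and 1.18), Zfp36 (0.56 and 0.96), Txnip (1.39 and 0.57), Trib2 (0.93 and 0.45), Mterf1a (0.81 and 0.79), Vegfa (-0.50 and -0.50), Dok3 (-0.84 and -0.73) and Snora65 (-0.79 and -0.78). Of the 124 WT rises 98 (79.0%) and of the 126 WT falls 111 (88.1%) had the same sign in KO cells, whether called there or not. Their median log2 differences were 0.49 in WT cells and 0.13 in KO cells for the rises, and -0.45 and -0.19 for the falls. The genes were chosen by their WT values, which favours large WT differences, so these medians are given as a description.

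The difference of the responses was tested gene by gene. It was called for 6 of 10903 genes (0.055%), 1 with a WT response above the KO response (0.00917%) and 5 with it below (0.0459%), and 758 genes had an unadjusted p under 0.05. Sema7a stood at 6.89, 7.38 and 7.08 in KO cells at 15 min, against 7.04, 7.14, 7.09 and 7.39 in KO cells at 0 min, where the ranges overlap. Its WT response minus its KO response was -1.35 ± 0.20 (adjusted p = 0.00116). Hbegf stood at 9.08, 9.25 and 9.20 in KO cells at 15 min, against 8.93, 8.93, 9.05 and 9.08 in KO cells at 0 min, which left a difference of responses of -0.88 ± 0.13 (0.00116).

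Errfi1 was the 1 gene called in opposite directions: it stood at 11.79, 11.74 and 11.78 in KO cells at 15 min, against 11.48, 11.54, 11.37 and 11.55 in KO cells at 0 min. Its response was -0.42 in WT cells and 0.29 in KO cells (difference -0.71 ± 0.10, adjusted p = 0.000727). Id1 differed between the responses by -0.68 ± 0.12 (0.0192) and Klf2, a Krüppel-like factor that was not called in WT cells (-0.20) and rose in KO cells (0.40), by -0.60 ± 0.12 (0.0351). Over the 23 alternative settings Sema7a and Hbegf kept this call in all, Errfi1 in 22, Id1 in 16 and Klf2 in 10. The remaining gene was an unnamed transcript with a difference of 0.79.

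In KO cells 0.394% of all tested genes rose and 0.422% fell, shares against which no list was tested. There 5 of 20 immediate early transcription factors, 5 of 21 other immediate early genes and 1 of 19 ERK feedback genes rose. No member of these lists fell. Those called in KO cells and not in WT cells, besides Klf2, were Dusp6 (0.08 in WT cells, 0.50 in KO cells), Ier3 (0.14 and 0.57), Junb (0.07 and 0.45), Jun (0.29 and 0.54), Ccn1 (0.13 and 0.46) and Phlda1 (0.28 and 0.46). All these values are from the brightest probe of each gene. The tests of the differences had adjusted p from 0.32 to 0.891, so the responses were not shown to differ. Spry4 was at background in KO cells at 15 min, and Osr2 and Spry3 were not detected in KO cells at either time. Their difference of responses is therefore not interpreted.

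**Figure D4:**
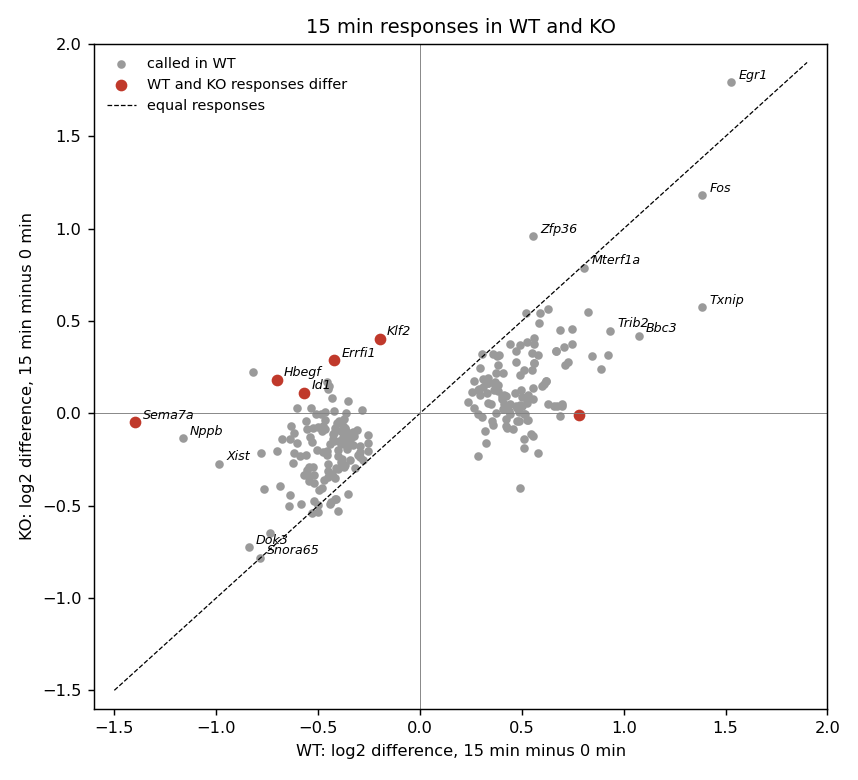
Each point is a gene called in WT cells at 15 min or called for the difference of responses, with the WT log2 difference (15 min minus 0 min) on the x axis and the KO log2 difference on the y axis. Red points are the 6 genes whose WT and KO responses differed by the test, and the dashed line marks equal responses. Egr1, Mterf1a, Dok3 and Snora65 lie near the line, and Sema7a lies near 0 in KO cells.

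The levels of the same genes over the later arrays put the 15 min values in sequence. These groups share the 0 min arrays with the comparison above, so they are given as mean log2 levels with no test. In WT cells Egr1 averaged 11.36, 12.89, 13.82, 11.71 and 9.86 at 0, 15, 60, 120 and 240 min. Fos averaged 4.88, 6.27, 6.98, 5.25 and 4.93, and Zfp36 averaged 6.78, 7.34, 8.27, 6.80 and 6.29. For these 3 genes the 15 min mean lay between the 0 and 60 min means, and 60 min was the highest.

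Txnip was highest at 15 min, averaging 6.65, 8.03, 7.05, 6.41 and 5.87 over the same times in WT cells, as were Osr2 (10.54, 11.23, 9.46, 9.69 and 8.89) and Ccng2 (7.98, 8.61, 7.69, 7.06 and 6.35). In KO cells Txnip averaged 7.72, 8.29, 8.65, 7.61 and 7.13, with 60 min the highest. Bbc3 (7.92, 8.99, 9.37, 7.37 and 7.64 in WT cells) and Mdm2 (12.11, 12.56, 13.49, 11.74 and 12.59) were highest at 60 min and lowest at 120 min.

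Several genes that fell at 15 min stood above their 0 min mean at 60 min. Hbegf averaged 10.55, 9.85, 11.79, 11.29 and 10.44 at 0, 15, 60, 120 and 240 min in WT cells, Errfi1 averaged 12.10, 11.68, 13.37, 13.12 and 12.95, and Nppb averaged 7.38, 6.22, 9.14, 8.38 and 7.91. Sgk1 averaged 11.71, 11.45, 13.96, 12.97 and 12.58, and Id1 averaged 8.14, 7.57, 9.06, 8.01 and 8.43. In each of these the 15 min mean was the lowest of the 5 and the 60 min mean the highest, a dip followed by a peak. Sgk1 lost its 15 min call in 9 of 16 alternatives. The genes were picked among those lower at 15 min, so the dip was in part set by the choice. How many other falls had this course was not counted. Sema7a differed, averaging 6.17, 4.78, 5.96, 8.09 and 8.32, highest at 240 min. In KO cells Hbegf averaged 9.0, 9.18, 10.58, 11.05 and 10.45, and Errfi1 averaged 11.49, 11.77, 12.70, 12.61 and 12.38, with 0 min the lowest in both. Dok3 (6.06, 5.22, 5.70, 5.95 and 6.26 in WT cells) showed the 15 min minimum in KO cells too (6.54, 5.82, 5.99, 6.37 and 6.76).

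**Figure D5:**
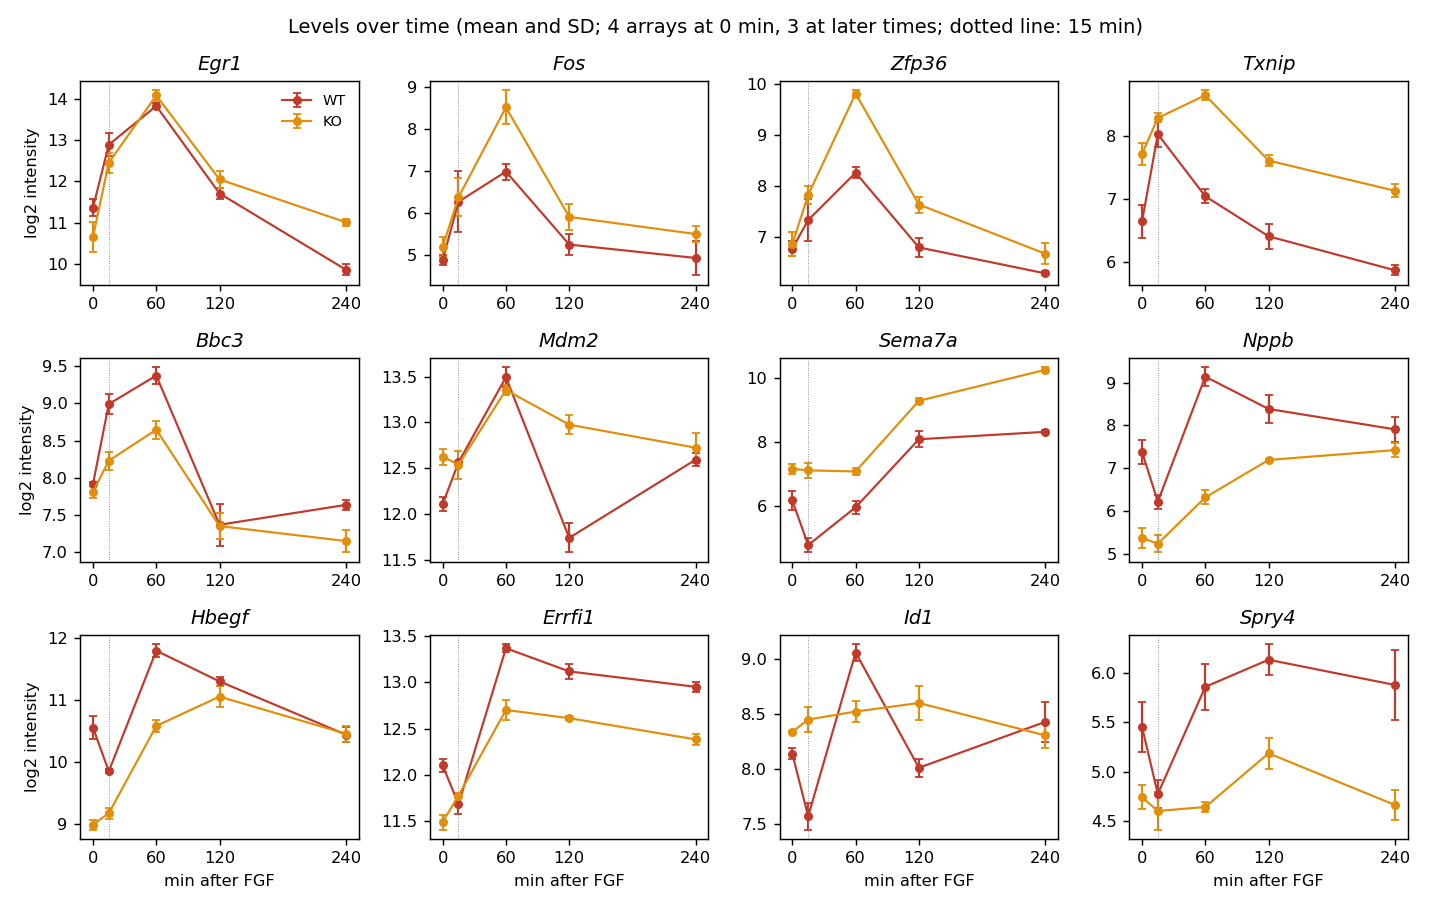
Mean log2 intensity (y axis, each panel with its own range) of 12 genes at 0, 15, 60, 120 and 240 min after FGF (x axis) in WT cells (red) and KO cells (orange). Error bars are SDs over 4 arrays at 0 min and 3 at later times, and the dotted line marks 15 min. The WT lines of Hbegf, Errfi1, Nppb, Id1 and Spry4 dip at 15 min, and those of Egr1, Fos and Zfp36 climb to 60 min.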

How the data were processed

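Total RNA was labelled with biotin and hybridised to Illumina mouse bead arrays, per the labels. The deposited intensity per probe is linear, carries negative values (background already removed) and is not normalized between arrays; GenomeStudio 1.9.0 is named in the submitters' processing notes. Detection p was taken as 1 minus a fraction that the authors deposited for every probe. The deposited bead standard deviation (a signal) and bead count of the 7 arrays entered the estimate of bead noise. Intensity from the authors' series matrix was an alternative. The table's remaining 178 sample columns were left aside.

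Intensities were processed with limma 3.58.1 (neqc, offset 16, log2, quantile normalization) in R 4.3.3. Probes with a detection p under 0.05 on at least 3 of the 32 arrays were kept (14716 of 25697), and the brightest probe stood for a gene. Of the probes 23978 have 1 gene symbol in the platform annotation, 0 several and 1719 none; 23962 matched RefSeq (GRCm38.p6), which gave current names and promoter sequences. The 10903 tested genes are 10041 named genes and 862 unnamed probes. 1 model of 10 group means was fitted over all arrays (lmFit, eBayes; 22 residual and 5.27 prior degrees of freedom, two-sided), with adjusted p over all genes tested.

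A probe not detected on any array of 1 group is called not well above background there, and its fold is a bound against the lowest detected signal. Per the series' design text the replicates are biological, with no word on what they share. No chip or scan date is given. Data simulated for WT 15 min against WT 0 min (10903 genes) held 67, 67 and 66 genes raised by log2 0.5, 1 and 2. Calls recovered 61.2%, 98.5% and 100% of these, with 16 false calls. The noise was drawn independently for each gene and array, without deviations shared over an array. These rates therefore need not hold for the real arrays.

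The comparison, its 34 gene lists and the rules were chosen with earlier results of these data known. Genes were named if among the 15 strongest called rises or 15 strongest called falls with no array overlap (unnamed transcripts aside), as were up to 4 called members of each list, kept members of the immediate early and ERK feedback lists, Spry1 to Spry4, and the 8 largest differences of responses of each sign.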

Additional observations from a re-analysis of the deposited data

Results flagged for a closer look

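In 5 of 99 named genes, WT 0 min replicate C stood apart from the 3 other unstimulated arrays by Dixon's criterion, which chance meets in about 1 of 20 groups of 4 arrays. Its log2 values were 7.21 for Thbs1, 11.14 for Zfp36l1 and 9.49 for Tcf7l1, below the others, and 9.71 for Ddit3 and 7.10 for Atf3, above them. All 5 lay in this 1 array. Without it 188 genes were called in WT cells.

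The 15 min response differed between WT and KO cells, by limma's test of the difference, for 6 genes. The log2 WT minus KO response was -1.35 for Sema7a, -0.88 for Hbegf, -0.71 for Errfi1, -0.68 for Id1, -0.60 for Klf2 and 0.79 for the unnamed transcript ILMN_1241610.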

How the results depend on the processing

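The WT comparison called 250 genes. It called 133 with median scaling over all probes (100 higher, 33 lower: 75.2% higher against 49.6%), 25 with only the groups compared in the fit, and 101 to 201 without 1 array; the other alternatives gave 191 to 301. Median scaling over the kept probes gave 42.4% higher. The KO comparison, 89 calls, gave 36 with median scaling over all probes (22.2% higher against 48.3%), 46 with the replicate block, 10 with only the groups compared and 20 to 72 without 1 array. The difference of responses, 6 calls, gave 12 without normexp, 3 with the replicate block and 3 to 9 without 1 array. Of these 6, 1 had a WT response above the KO response (16.7%); with median scaling over all probes it was 6 of 9 (66.7%), where the median difference over all genes was 0.118, and without normexp 5 of 12 (41.7%). The cause of these shifts was not tested, and the smaller fits also hold fewer arrays. Same-letter arrays at 15 and 0 min did not deviate together (correlations -0.02, 0.01 and 0.02), and not every array matched its own letter best. These correlations gave no sign that the letters pair samples, but cannot exclude a weak pairing beneath the noise of the arrays. With the replicate block the WT comparison called 191. Of 51 called named genes 16 kept their call under every alternative, 35 lost it under at least 1 and 0 reversed; of 48 named genes not called, 7 passed under at least 1. A fall to background, as for Spry4 and Sema7a, limits the size that can be measured.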
